A study of Mus musculus with 9 samples.

Results

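The genes described here are 10 of the protein genes carried by the mouse mitochondrial genome, measured by RNA sequencing of brown adipose tissue (BAT). They are a set of genes given by name. They comprise mt-Nd1, mt-Nd2, mt-Nd4, mt-Nd5 and mt-Nd6 of complex I, mt-Cytb of complex III, mt-Co1, mt-Co2 and mt-Co3 of complex IV, and mt-Atp6 of complex V. All 10 were listed in each of the 3 deposited tables, which together list 16937 genes. There were 3 groups of 3 mice, all on a C57Bl/6J background and aged between 12 and 23 wk. Per the paper, the sequenced groups held both males and females. Library columns carry no mouse, so sex could not be assigned to a library and was not modelled. WT RT mice stayed at 23 °C, WT Cold mice spent 8 h at 4 °C, and GCN2 KO Cold mice carried a whole-body deletion of Gcn2 and spent the same 8 h at 4 °C. All mice were housed singly for 5 days beforehand. There was no knockout group at 23 °C, so genotype was compared in the cold alone. The study asked whether the amino acid-sensing kinase GCN2 is needed for the response of mice to acute cold.

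Most subunits of the respiratory chain are encoded in the nucleus, translated in the cytosol and imported. The mitochondrial genome retains genes for core subunits of complexes I, III, IV and V. It is copied into long transcripts of each strand, which are then cut, largely at the tRNA genes that lie between the protein genes, into separate mRNAs. Complexes I, III and IV pump protons out of the matrix. In brown adipocytes uncoupling protein 1 (UCP1) lets protons return without ATP synthesis, so that respiration releases heat.

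The counts under mt-Co2, mt-Co3 and mt-Atp6 were far below those of the other 7 genes, and the sequences of the genes differ in a way that bears on counting. The authors counted only reads that align to a single place. The nuclear genome carries old copies of mitochondrial sequence, and a read that fits both places equally is not unique. Coordinates and sequences here are those of GENCODE M21 on GRCm38, whereas the submitters' processing notes name GRCm39. The search covered annotated transcripts, not the whole genome. The mt-Co2 gene, at 7013 to 7696 of the mitochondrial chromosome, matched the pseudogene Gm28661, at 24614885 to 24615565 on the minus strand of chromosome 1, over 681 bases with 0 mismatches. The first 120 bases of both are shown, because they are the same in each letter.

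mt-Co2 (mitochondrial chromosome 7013 to 7132, plus strand) and Gm28661 (chr1:24615446-24615565, minus strand): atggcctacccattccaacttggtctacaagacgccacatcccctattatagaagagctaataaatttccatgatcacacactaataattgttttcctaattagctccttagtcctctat

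The same run of pseudogenes matched mt-Atp6 over 678 bases (Gm10925) and mt-Co3 over 783 bases (Gm28437), each with 0 mismatches. It matched mt-Nd4 over its first 876 bases (Gm28439), also with 0 mismatches. For mt-Co1, at 5328 to 6872, the copy Gm29216 held the last 492 bases, and all of the 6 mismatches fell close to its start. The stretch where this copy begins is shown with the differing bases in capitals. The substitutions, numbered from 1 at the start of mt-Co1 and written from mt-Co1 to the copy, were T1056A, C1057T, A1059G, A1060G, C1062A and A1066T.

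mt-Co1 (mitochondrial chromosome 6381 to 6500, plus strand): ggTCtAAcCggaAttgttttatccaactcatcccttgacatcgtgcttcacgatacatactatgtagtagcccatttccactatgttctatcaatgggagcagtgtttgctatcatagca

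Gm29216 (chr1:24616078-24616197, minus strand): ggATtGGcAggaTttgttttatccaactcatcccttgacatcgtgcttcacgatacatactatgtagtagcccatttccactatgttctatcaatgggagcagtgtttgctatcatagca

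Each gene was scored by the share of its 150-base windows, the read length, that occur letter for letter in another annotated transcript. Reads were sequenced in pairs, whereas windows were scored singly, and a pair partly outside a copied stretch can still be unique. The share was 99.4% for mt-Co2 and mt-Atp6, 99.8% for mt-Co3, 59.2% for mt-Nd4 and 23.6% for mt-Co1. It was 0% for mt-Nd1, mt-Nd2, mt-Nd5, mt-Nd6 and mt-Cytb. The genes with almost every window copied were also the 3 genes with the lowest counts. In reads per kilobase of gene and per 1000000 counted reads (RPKM), which allows levels of different genes to be compared, the mean of the 9 libraries was 115 for mt-Atp6, 65.4 for mt-Co2 and 50.5 for mt-Co3. The other 7 genes had means from 8859 RPKM for mt-Nd4 to 43259 RPKM for mt-Co1. Of the remaining protein genes of this genome, mt-Nd3 (97.0% of windows copied) and mt-Nd4l (98.0%) had 272 and 104 RPKM. mt-Atp8 had 124 RPKM with 0% of windows copied in an annotated transcript. Because reads that fit more than 1 place were not counted, the values of mt-Co2, mt-Co3 and mt-Atp6 are given as counts of uniquely placed reads and are not ranked with the other 7 genes. The part of the copies in the low counts was not tested.

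**Figure D1:**
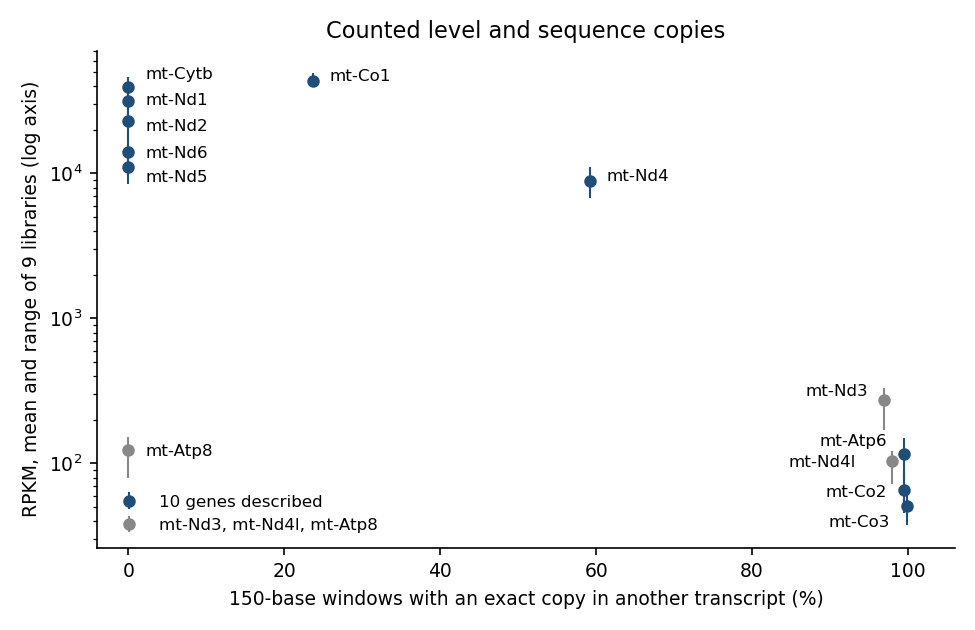
Mean level per length of the 13 protein genes of the mitochondrial genome (RPKM, log axis, bars from the lowest to the highest of 9 libraries) against the percentage of their 150-base windows found in another annotated transcript. mt-Co2, mt-Co3 and mt-Atp6 sit at over 99% and near 100 RPKM, while the other 7 genes described sit between 0% and 59.2% and above 6700 RPKM.

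A further limit concerns mt-Nd6, the only one of the 10 on the minus strand, at 13552 to 14070. The sources used here do not say that the library kit kept strand, so reads of mt-Nd6 and reads of RNA copied from the opposite strand cannot be told apart. Its annotation also overlaps the end of mt-Nd5, which spans 11742 to 13565.

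Reads on listed genes numbered 27058799 to 30768064 per library, so counting error is small for all 10 genes, and the spread between mice limits the precision. The targeted gene Eif2ak4, which encodes GCN2, stood at 11.8 to 12.7 counts per 1000000 reads (CPM) in libraries carrying the label GCN2 KO Cold and at 6.46 to 8.34 CPM in WT Cold, and so was not lower, with a log2 fold change of 0.78 (adjusted p = 0.0932 with limma and 0.00286 with DESeq2). Its mean in GCN2 KO Cold was 12.1 ± 0.459 CPM and that in WT RT 12.2 ± 1.04 CPM (SD, n = 3). The sources used here do not place the deletion within the gene, so this count checks the label only in part, and the group is called by its label throughout. The library codes of WT RT begin with other letters than the codes of the cold mice. The sources used here do not say what the letters stand for, and whatever they mark cannot be told apart from cold. Ucp1, the defining marker of the tissue, was present in every library at 3592 to 9693 CPM.

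Together the 10 genes supplied a larger share of the reads in each cold group than at room temperature. In WT RT they took 18.1%, 17.7% and 18.3% of the reads on listed genes in libraries A, B and C. In WT Cold they took 19.6%, 21.1% and 21.7%, and in GCN2 KO Cold 24.0%, 22.5% and 22.3%. No library of a group fell within the range of another group, and the means were 18.1 ± 0.307% in WT RT, 20.8 ± 1.11% for WT Cold and 23.0 ± 0.928% for GCN2 KO Cold (SD, n = 3). Each of the 3 differences, 2.72 percentage points for WT Cold against WT RT, 2.17 for GCN2 KO Cold against WT Cold and 4.89 for GCN2 KO Cold against WT RT, had p = 0.1 in a two-sided exact permutation test, the smallest that 3 against 3 libraries allow. In bulk tissue, more RNA per cell and more cells of a type cannot be told apart.

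**Figure D2:**
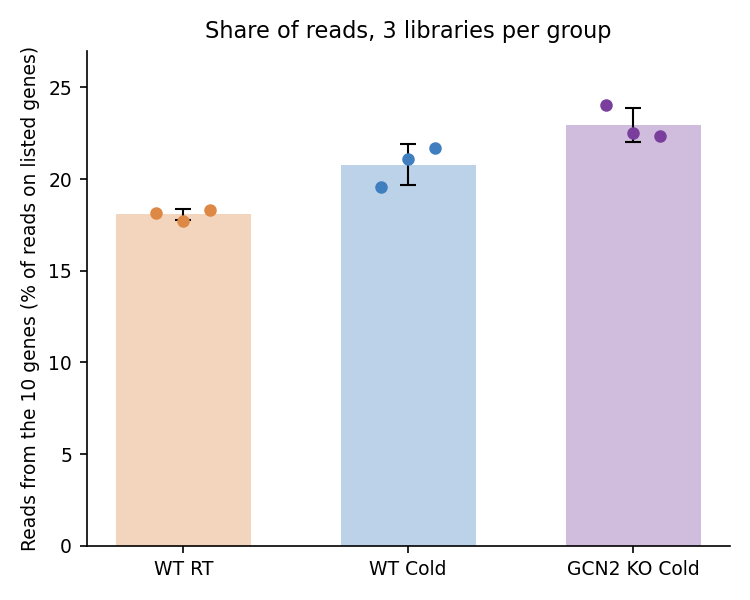
Percentage of reads on listed genes that came from the 10 genes, by group. Points are libraries A, B and C from left to right, bars are means and error bars are SD; WT RT libraries sit between 17.7% and 18.3%, WT Cold between 19.6% and 21.7%, and GCN2 KO Cold between 22.3% and 24.0%.

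Per length, the order of the 7 genes other than mt-Atp6, mt-Co2 and mt-Co3 was nearly the same in each group. In WT RT it ran from mt-Co1 (41342 ± 2764 RPKM) through mt-Cytb (34401 ± 1001), mt-Nd1 (26036 ± 2430), mt-Nd2 (19114 ± 1026), mt-Nd6 (10621 ± 736) and mt-Nd5 (9347 ± 817) to mt-Nd4 (7268 ± 443; SD, n = 3 for each). No neighbours in that order overlapped in WT RT. In WT Cold, mt-Co1 (39987 to 44536 RPKM) overlapped with mt-Cytb (34206 to 43542 RPKM), and mt-Cytb overlapped with mt-Nd1 (30592 to 35515 RPKM). In GCN2 KO Cold, mt-Co1 (41933 to 49007.5 RPKM) again overlapped with mt-Cytb (43163 to 46561.5 RPKM), and mt-Nd5 (10812 to 13324 RPKM) with mt-Nd4 (10029.5 to 11086 RPKM). The levels of mt-Co1 and mt-Nd4 include the copied stretches in their length, and the place of mt-Nd4 depended on the length used. Of mt-Nd4, 502 of 1378 bases lay outside copied windows, and divided by these its mean over 9 libraries was 24317 in place of 8859, above mt-Nd2 (23093), mt-Nd6 (14118) and mt-Nd5 (11048). For mt-Co1 the mean became 62698 in place of 43259, and it stayed first of the 7. These divisors were chosen after the data were seen and assume that no read was counted within the copied windows, which was not tested.

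**Figure D3:**
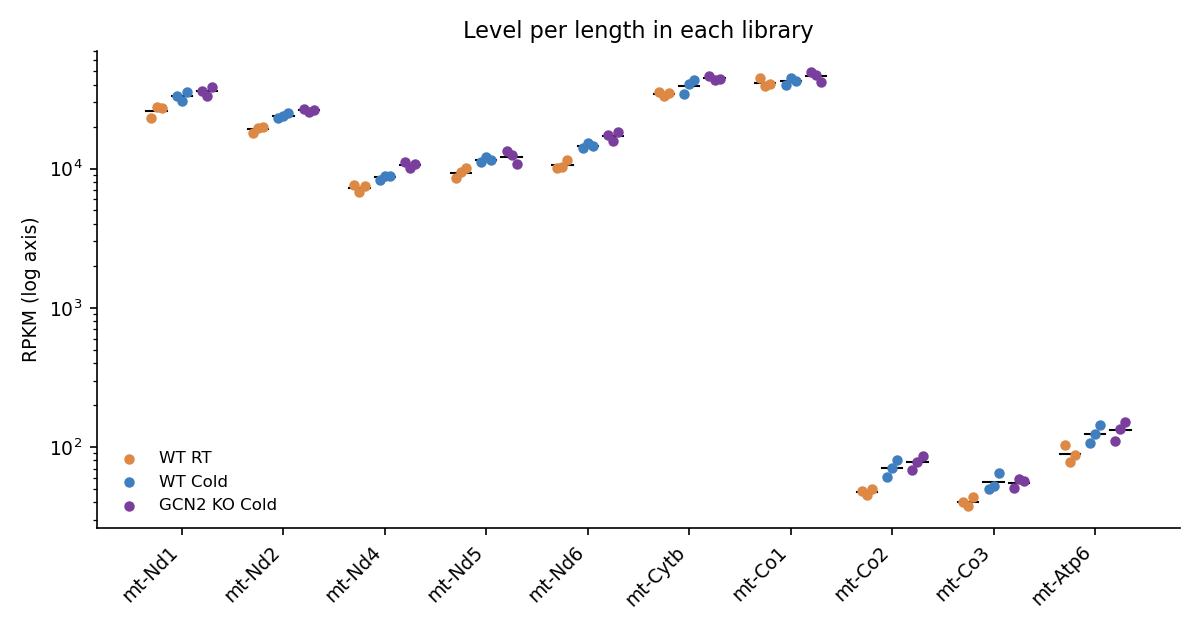
Level per length of each gene in each of the 9 libraries (RPKM, log axis), coloured by group, with black lines at the group means. The 7 genes from mt-Nd1 to mt-Co1 lie between 6761 and 49007.5 RPKM and mt-Co2, mt-Co3 and mt-Atp6 between 37.5 and 150 RPKM.

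The complex I genes encode the proton-pumping core of NADH dehydrogenase. mt-Nd6 had 5270.3, 5314 and 5953 CPM in WT RT, 7276, 7861 and 7544 CPM in WT Cold, and 9089.7, 8131 and 9505 CPM in GCN2 KO Cold. Its groups did not overlap, with WT RT lowest and GCN2 KO Cold highest. mt-Nd4 had 10443, 9316 and 10288 CPM in WT RT, 11427, 12217.5 and 12276 CPM in WT Cold, and 15276, 13821 and 14799.5 CPM in GCN2 KO Cold, and its groups were likewise apart in that order. mt-Nd2 had 18647, 20175 and 20697 CPM in WT RT, 23881, 24829 and 25962 CPM in WT Cold, and 27767, 26464 and 27317 CPM in GCN2 KO Cold. For mt-Nd2, too, each group stood apart from the other two.

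mt-Nd1, which encodes a subunit near the quinone-binding site, had 22247, 26501 and 26001 CPM in WT RT, 31512, 29276 and 33987.5 CPM in WT Cold, and 34677, 31727 and 36618 CPM in GCN2 KO Cold. mt-Nd5 had 15509, 17155 and 18483 CPM in WT RT, 20387, 22001 and 21112 CPM in WT Cold, and 24304, 22692 and 19721 CPM in GCN2 KO Cold. For both genes all cold libraries lay above all WT RT libraries, while the cold groups overlapped with each other. Library C of GCN2 KO Cold was the highest of its group for mt-Nd1 and the lowest for mt-Nd5.

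mt-Cytb encodes cytochrome b, the mitochondrially encoded subunit of complex III. It had 40351, 38104 and 39609.7 CPM in WT RT, 39131.5, 46024 and 49812 CPM in WT Cold, and 53266, 49378.5 and 50364.5 CPM in GCN2 KO Cold. WT Cold spread widely, and its library A fell within the WT RT range. mt-Co1 encodes the catalytic subunit of cytochrome c oxidase, which holds the oxygen-reducing centre, and had the highest counts of the 7 genes that were ranked. It had 68719.8, 60668 and 62229.9 CPM in WT RT, 61779.8, 68808 and 66016 CPM in WT Cold, and 75717, 72797 and 64786 CPM in GCN2 KO Cold. Its 3 groups overlapped on this scale.

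mt-Co2 encodes the subunit that takes electrons from cytochrome c. In uniquely placed reads it had 33.1, 31.1 and 34.0 CPM in WT RT, 41.7, 48.3 and 55.3 CPM in WT Cold, and 46.4, 53.2 and 59.3 CPM in GCN2 KO Cold. mt-Co3, another core subunit of complex IV, had 29.4 to 34.4 CPM in WT RT, 39.2 to 50.8 in WT Cold and 39.9 to 46.2 in GCN2 KO Cold. mt-Atp6, which encodes a subunit of the proton channel of ATP synthase, had 52.8 to 70.3 CPM in WT RT, 72.8 to 98.1 in WT Cold and 74.7 to 102 in GCN2 KO Cold. In all 3 genes the cold groups lay above WT RT and overlapped with each other. The counts of their copies are also of uniquely placed reads. Because the matches had 0 mismatches, these counts are not read as levels of the pseudogenes. The pseudogene Gm28661, which shares the sequence of mt-Co2, had 9.32 to 12.2 CPM in WT RT, 12.5 to 16.6 in WT Cold and 14.8 to 16.9 in GCN2 KO Cold, with both cold groups above WT RT. The copy of mt-Co3, Gm28437, overlapped between WT RT (6.11 to 7.12 CPM) and WT Cold (5.80 to 9.45 CPM) and lay above WT RT in GCN2 KO Cold (8.97 to 10.9 CPM). The copy of mt-Atp6, Gm10925, had 13.2 to 14.7 CPM in WT RT, 16.3 to 20.9 in WT Cold and 17.3 to 19.1 in GCN2 KO Cold, apart from WT RT in both cold groups.

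WT Cold against WT RT asks what 8 h of cold did in wild-type BAT. All 10 genes were higher in WT Cold, and 4 of them rose by the test: mt-Nd6, mt-Co2, mt-Co3 and mt-Atp6. Of all 16679 genes tested, 13.6% were called higher and 14.1% lower. The log2 fold changes, which are on the log2(normalized count + 1) scale throughout, ranged from 0.12 for mt-Co1 to 0.64 for mt-Co2, with a median of 0.42 against 0.00 for all genes. Of the 4 genes called, 3 were those with almost every window copied, and of the other 7 genes 1 was called. Which genes passed depended on limma's mean-variance trend. Without the trend, mt-Co3 (adjusted p = 0.0625) and mt-Atp6 (adjusted p = 0.0727) did not pass in limma, and mt-Nd2 did (adjusted p = 0.0461). With limma on the normalized counts, mt-Nd6 rose by 0.54 (standard error 0.12, adjusted p = 0.0135). mt-Co2 rose by 0.64 (adjusted p = 0.00986), mt-Atp6 by 0.56 (adjusted p = 0.0281) and mt-Co3 by 0.54 (adjusted p = 0.0245).

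The remaining 6 genes did not pass. mt-Nd1 had a log2 fold change of 0.43 (adjusted p = 0.0923), mt-Nd2 0.41 (adjusted p = 0.0724), mt-Nd5 0.40 (adjusted p = 0.0822) and mt-Nd4 0.34 (adjusted p = 0.0809). For mt-Cytb it was 0.27 (95% confidence interval -0.16 to 0.70) and for mt-Co1 0.12 (-0.32 to 0.56). The groups did not overlap for 8 of the 10 genes, all but mt-Cytb and mt-Co1, against 22.8% of all genes not overlapping with WT Cold higher. No gene of the 10 passed the stricter threshold that also asks for an absolute log2 fold change above 1, the study's rule applied here to limma's adjusted p, which 8.14% of all genes passed in either direction. The count of called genes depended on the tool. DESeq2 and edgeR on the recovered reads each called 8 of 10 higher, all but mt-Cytb and mt-Co1, beside 14.9% and 13.5% of all genes. It also depended on single libraries and was 1 without WT Cold library B, 2 without WT RT library A and 2 without WT RT library B, while mt-Co2 was called whichever library was left out.

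GCN2 KO Cold against WT Cold asks what the knockout changed in the cold. All 10 log2 fold changes were above 0, from 0.12 for mt-Co3 to 0.41 for mt-Nd4 with a median of 0.24, and 0 of the 10 were called by limma, beside 0.178% of all genes called higher and 0.227% lower. With limma's adjusted p, the stricter threshold was passed by 0 of the 10 and by 0.257% of all genes. At an unadjusted p under 0.05 there were 2 of the 10, mt-Nd4 (log2 fold change 0.41, 95% confidence interval 0.12 to 0.69, adjusted p = 0.187) and mt-Nd6 (0.35, 0.08 to 0.62, adjusted p = 0.218), beside 7.83% of all genes with the knockout higher. DESeq2 called both of these genes (adjusted p = 0.00552 and 0.0442) beside 1.4% of all genes, and edgeR called 0 of the 10 beside 0.11%. The intervals of the other 8 genes all included 0 and reached up to 0.73 for mt-Cytb, 0.66 for mt-Co1 and 0.42 for mt-Co3, and the spread between mice allows differences of that size. In normalized counts, the groups did not overlap for 5 of the 10 genes, mt-Nd2, mt-Nd4, mt-Nd6, mt-Cytb and mt-Co1, against 11.3% of all genes. On the CPM scale mt-Cytb and mt-Co1 overlapped.

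The size of this difference depended on the scaling. When reads were divided by the library total in place of the deposited size factors, the median of all genes moved to -0.12 and the median of the 10 genes to 0.12. A change of divisor moves every gene by the same amount, so the distance between these medians is fixed. The value of mt-Co3 came to 0.00.

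GCN2 KO Cold against WT RT combines both differences and shares its libraries with the comparisons above. Here 8 of the 10 genes rose, beside 16.4% of all genes called higher and 17.8% called lower, with a median log2 fold change of 0.66 over the 10. mt-Nd6 rose by 0.89 (adjusted p = 0.00226), mt-Co2 by 0.89 (adjusted p = 0.000954), mt-Atp6 by 0.76 (adjusted p = 0.00513) and mt-Nd4 by 0.75 (adjusted p = 0.00668). mt-Nd1, mt-Nd2, mt-Co3 and mt-Nd5 rose by 0.67, 0.66, 0.66 and 0.58 (adjusted p from 0.00282 to 0.0435). mt-Cytb had 0.58 (adjusted p = 0.0816) and mt-Co1 0.36 (adjusted p = 0.329), and both were called by DESeq2 and edgeR, which called all 10 beside 16.6% and 15.5% of all genes. The groups did not overlap in normalized counts for any of the 10, against 23.7% of all genes, although mt-Co1 overlapped in CPM. With limma's adjusted p, none of the 10 passed the stricter threshold, which 10.6% of all genes passed. Without library A or B of GCN2 KO Cold, or A or B of WT RT, the count was 5. Divided by library totals it was 6, the median of the 10 genes was 0.46 and that of all genes -0.19.

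**Figure D4:**
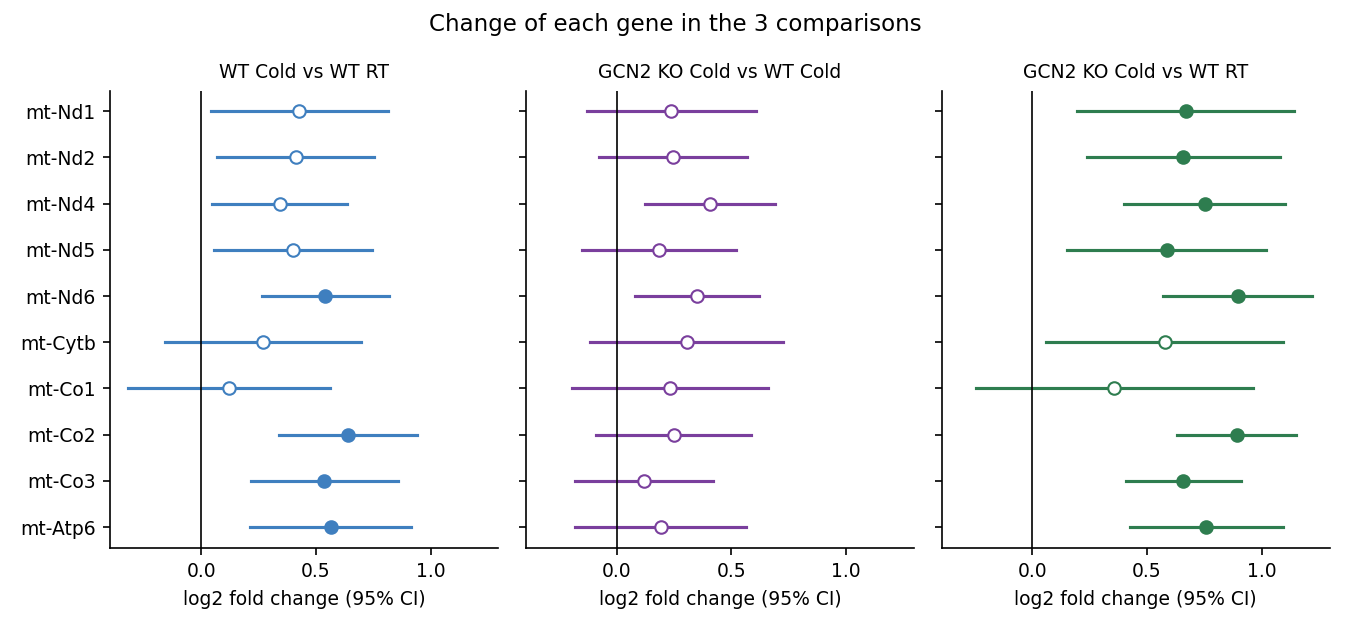
Log2 fold change of each gene in the 3 comparisons, with 95% confidence intervals from limma on log2(normalized count + 1). Filled points have an adjusted p under 0.05; they number 4, 0 and 8 from left to right, and every point lies above 0.

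In both comparisons with WT RT, mt-Nd6 and mt-Co1 stood at the ends of the range among the 7 genes other than mt-Co2, mt-Co3 and mt-Atp6. Per length, mt-Nd6 had 0.228, 0.261 and 0.285 of the level of mt-Co1 in WT RT, 0.351, 0.340 and 0.340 in WT Cold, and 0.357, 0.333 and 0.437 in GCN2 KO Cold. Both cold groups lay above WT RT and overlapped with each other. The pair was picked for its fold changes in these comparisons, so the ratio is a description and was not tested. Within the reads of the 10 genes, mt-Co1 took 35.3 ± 2.21% in WT RT, 31.5 ± 1.07% for WT Cold and 31.0 ± 1.73% for GCN2 KO Cold (SD, n = 3). Neither measure depends on how libraries are scaled.

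The other listed protein genes of the mitochondrial genome were in the same direction. mt-Atp8, mt-Nd3 and mt-Nd4l all rose in WT Cold against WT RT, by 0.72, 0.66 and 0.50 (adjusted p = 0.00758, 0.0124 and 0.0247), and in GCN2 KO Cold against WT RT, by 0.88, 0.71 and 0.62. None was called between the cold groups. The rRNA genes mt-Rnr1 and mt-Rnr2 were not analysed here. The tRNA genes are a group chosen after its values were seen, and their values are a description. Reads counted there can come from long transcripts not yet cut as well as from separate tRNAs, and these were not told apart. In WT Cold against WT RT, 16 of 19 tRNA genes rose, beside 13.6% of all genes, with a median log2 fold change of 0.82, and in GCN2 KO Cold against WT RT 17 of 19 rose, beside 16.4% of all genes, with a median of 1.06. Of 20 between the cold groups limma called 0, with a median of 0.10. DESeq2 called mt-Tp higher there (log2 fold change 0.59, adjusted p = 0.0062), for which limma had an adjusted p of 0.129. The leucine tRNA gene mt-Tl1 had 118, 128 and 145 CPM in WT RT, 482, 423 and 196 CPM in WT Cold, and 268, 200.4 and 242 CPM in GCN2 KO Cold. Library C of WT Cold held 196 CPM of mt-Tl1 against 482 CPM in library A, although its share of reads from the 10 protein genes was the highest of that group.

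The nuclear genes Gm42418 and Gm26917, which overlap rRNA sequence and were picked by hand, exceeded their WT RT level in WT Cold by 0.64 and 0.55 (adjusted p = 0.0218 and 0.00311). Their CPM ranges were 703 to 880.1 and 103 to 122 in WT RT against 1077 to 1459.6 and 143 to 169 in WT Cold. In GCN2 KO Cold they were 1028 to 1199 and 133 to 152. The libraries were enriched with oligo(dT) beads, and the part of RNA selection in the results of the mitochondrial genes was not tested.

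The nuclear genes for subunits of the same complexes give the other side of the respiratory chain. Of 77 listed, 37 rose and 0 fell in WT Cold against WT RT, beside 13.6% and 14.1% of all genes, with a median log2 fold change of 0.23. Uqcrh, a small subunit of complex III, rose by 0.49 (adjusted p = 0.00273), and Cox7a1, the muscle and brown fat form of a complex IV subunit, by 0.44 (adjusted p = 0.00517). Between the cold groups 0 of the 77 were called by limma, 73 were above 0 and the median was 0.36. In GCN2 KO Cold against WT RT, 67 rose and 1 fell, beside 16.4% and 17.8% of all genes, with a median of 0.58. The gene that fell was Cox6a2 (-1.51, adjusted p = 0.0384), a form of a complex IV subunit found in striated muscle and brown fat, which had a log2 fold change of 0.75 in WT Cold against WT RT (adjusted p = 0.0212). Between the cold groups its value was -2.26 (adjusted p = 0.118), and all 15 skeletal muscle markers had values below 0 there, with a median of -2.01. Of these markers 1 was called lower, beside 0.227% of all genes.

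The balance between the genomes was described by ratios of summed reads. The summed CPM of the 7 genes other than mt-Co2, mt-Co3 and mt-Atp6, divided by the summed CPM of the 77 nuclear genes, was 3.86, 3.99 and 4.08 in WT RT, 3.96, 4.17 and 4.47 in WT Cold, and 4.47, 4.13 and 3.70 in GCN2 KO Cold. All 3 groups overlapped, and the differences of 0.224 for WT Cold against WT RT, -0.0984 for GCN2 KO Cold against WT Cold and 0.125 for GCN2 KO Cold against WT RT had p = 0.3, 0.7 and 0.7 in the two-sided exact permutation test, in which 0.1 is the smallest possible. For complex I, the 5 mitochondrial genes over 36 nuclear genes, the ratio was 5.35, 6.22 and 6.41 in WT RT, 6.63, 6.62 and 7.52 in WT Cold, and 7.12, 6.48 and 6.17 in GCN2 KO Cold. WT Cold lay above WT RT, and GCN2 KO Cold overlapped with both. For complex IV, mt-Co1 over 15 nuclear genes, it was 5.55, 5.38 and 5.49 in WT RT, 4.86, 5.06 and 5.01 in WT Cold, and 5.09, 4.89 and 3.78 in GCN2 KO Cold, so that all cold libraries lay below all WT RT libraries. For complex III, mt-Cytb over 9 nuclear genes, the WT RT values of 5.79 to 5.99 fell within those of WT Cold, 5.29 to 6.91, and of GCN2 KO Cold, 5.69 to 6.63. The ratios by complex were not tested.

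**Figure D5:**
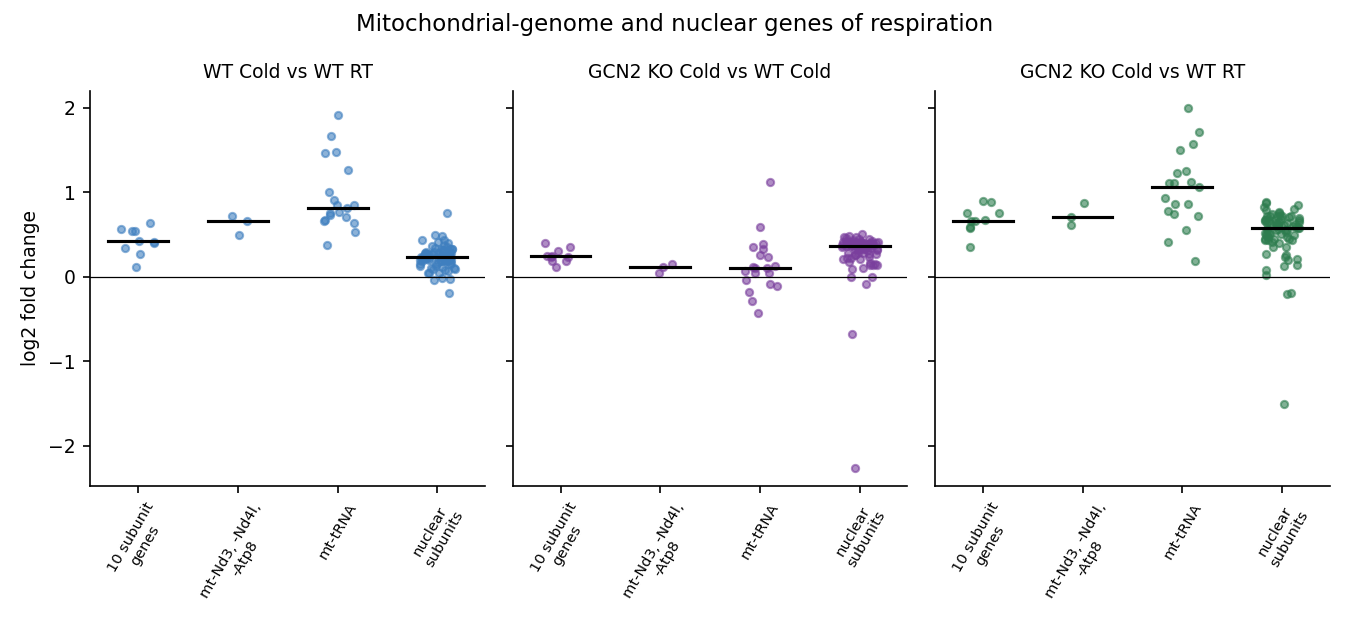
Log2 fold changes of the 10 subunit genes, of mt-Nd3, mt-Nd4l and mt-Atp8, of the mitochondrial tRNA genes and of 77 nuclear subunit genes in the 3 comparisons, with black lines at the medians. The medians of the 10 genes are 0.42, 0.24 and 0.66 and those of the nuclear genes 0.23, 0.36 and 0.58; the lowest nuclear point in the centre and right panels is Cox6a2.

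Genes that act on mitochondrial RNA and DNA were counted by lists chosen with earlier results of these data known. Of 20 genes for mitochondrial RNA processing and decay, 11 rose and 0 fell in WT Cold against WT RT, beside 13.6% and 14.1% of all genes. They included Fastkd5 (log2 fold change 1.28), which acts on mitochondrial mRNAs not flanked by tRNAs, and Trmt10c (0.88) and Hsd17b10 (1.04), subunits of the enzyme that cuts the 5' ends of mitochondrial tRNAs, with adjusted p from 0.000636 to 0.000971. Fastkd2 rose by 0.74 (adjusted p = 0.0012). In GCN2 KO Cold against WT RT 12 of the 20 rose, beside 16.4% of all genes, among them Slirp (0.98, adjusted p = 0.000415), which stabilizes mitochondrial mRNAs with Lrpprc.

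Of 10 genes for transcription of the mitochondrial genome, Mterf3 was the 1 that rose in WT Cold against WT RT (0.54, adjusted p = 0.0051), a share near the 13.6% of all genes called higher. In GCN2 KO Cold against WT RT 5 rose, beside 16.4% of all genes. They included Mterf2 (0.68), the elongation factor gene Tefm (0.50) and Tfb1m (0.46). Among 12 genes for replication of the mitochondrial genome, 1 rose and 4 fell in WT Cold against WT RT, beside 13.6% and 14.1% of all genes, with the helicase gene Twnk up by 0.73 (adjusted p = 0.00363) and Tk2, Rrm2b and Mgme1 at -0.73, -0.50 and -0.49 (adjusted p from 0.00724 to 0.00872). In GCN2 KO Cold against WT RT 2 rose and 4 fell, beside 16.4% and 17.8% of all genes. Tk2 and Rrm2b supply deoxynucleotides for mitochondrial DNA.

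Of 10 regulators of mitochondrial gene expression, 3 rose in WT Cold against WT RT, beside 13.6% of all genes, namely Ppargc1a, a coactivator of mitochondrial biogenesis (2.70, adjusted p = 0.00054), and the nuclear receptors Esrrb (2.63, adjusted p = 0.00177) and Esrra (0.69, adjusted p = 0.00546). The same 3 rose in GCN2 KO Cold against WT RT, by 2.77, 2.18 and 0.93. Of 12 mitochondrial translation factors, Gfm1 rose (0.29, adjusted p = 0.0393) and Tsfm fell (-0.37, adjusted p = 0.0252) in WT Cold against WT RT, shares no higher than the 13.6% and 14.1% of all genes called higher and lower. Against WT RT, 4 rose in GCN2 KO Cold, beside 16.4% of all genes. Between the cold groups 0 genes of any of these lists were called by limma.

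Markers of other cell types differed between the groups beside these results. The summed CPM of 8 brown adipocyte markers ran from 18224 to 20153 in WT RT, 24190 to 26181 in WT Cold and 28326 to 29245 in GCN2 KO Cold, the same order as the share of reads from the 10 genes. Within this sum, Ucp1 alone had means of 4543, 8609 and 9578 CPM in the 3 groups. Fabp4, another of the 8, was higher than Ucp1 in normalized counts. In the comparison of the cold groups, Fabp4 had means of 391416 in GCN2 KO Cold and 309418 in WT Cold, against 281271 and 232977 for Ucp1. There, limma called 0 of the 8 markers. The list's members went in both directions. In WT Cold against WT RT, 3 rose (Dio2, Elovl3 and Ucp1), 2 fell (Adrb3, log2 fold change -1.13, and Plin1, -0.34), and 3 were not called. Of all genes, 13.6% were called higher and 14.1% lower there. In GCN2 KO Cold against WT RT 5 rose and 1 fell, beside 16.4% and 17.8% of all genes. The summed CPM of 15 skeletal muscle markers ran from 2490.1 to 3011 in WT RT, 2311 to 3871 in WT Cold and 326 to 1323 in GCN2 KO Cold. All 15 fell in GCN2 KO Cold against WT RT, beside 17.8% of all genes. For 5 erythroid markers the ranges were 260.3 to 345, 572 to 2279 and 1084 to 2081 CPM, and for 7 leukocyte markers 80.2 to 159, 27.6 to 44.2 and 19.2 to 30.9 CPM. The 4 endothelial markers ranged from 453 to 504, 550 to 674 and 434 to 533 CPM. No marker was at 0 in the libraries that listed it, and the part of cell composition in the results of the 10 genes was not tested.

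Over the 9 libraries, log2 CPM of the 10 genes varied together to different degrees. Pearson's r over the 45 pairs ranged from 0.249 for mt-Nd1 with mt-Co1 to 0.973, with a median of 0.789, a description of libraries that share their groups and totals. Among 12869 genes outside the mitochondrial genome whose normalized counts averaged 50 or more, the 5 with the highest r with the mean of the 10 were 1700021F05Rik (0.988), Tomm40 (0.975), Atp6v1e1 (0.962), Mir6236 (0.959) and Fuom (0.959). Tomm40 encodes the channel through which nuclear-encoded proteins enter mitochondria. It had 86.8 ± 0.567 CPM in WT RT, 105 ± 4.13 CPM in WT Cold and 107 ± 3.36 CPM in GCN2 KO Cold (SD, n = 3).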

How the data were processed

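BAT RNA of 9 mice was analysed, 3 per group, each library from a separate mouse. Per the labels and the paper's methods, the authors enriched mRNA with oligo(dT), trimmed reads with Trimmomatic (0.36), aligned them with STAR (2.5.2b), counted unique reads in exons with featureCounts (Subread 1.5.2) and compared groups with DESeq2. The deposited values are a signal per gene and library, that is, reads scaled by a size factor that belongs to each of 3 tables. The tables also hold the authors' log2 fold changes, p-values and adjusted p-values, which were not used. Column names carry library codes and no mouse, and within each group the code order gives the names A, B and C. The third knockout sample has a title that names both genotypes and was assigned by its genotype label. Whole reads were recovered for 100% of values (tolerance 0.001), and CPM and RPKM were computed from them over the 16937 listed genes. Columns from other samples numbered 0.

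The main test was limma (3.58.1, R 4.3.3) on log2(value + 1) with a mean-variance trend, the 2 groups of a table per fit, and Benjamini-Hochberg adjustment over all genes of the table. The confidence intervals at 95% are from that fit. DESeq2 (1.42.0) and edgeR (4.0.16) were run on the recovered reads, and limma on CPM with and without mitochondrial genes in the total, with a pseudocount of 0.5, with a minimum mean of 50, without the trend, with all 3 groups in 1 fit and with each library left out. Each test was tried on simulated data. Mitochondrial genes were cut into 150-base windows and searched in the GENCODE M21 transcripts. The genes and lists were chosen with earlier results of these data known. All members were named, and from each list up to 4 called genes with the largest change per comparison. The tRNA genes and Plin1 fall outside that rule.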

Additional observations from a re-analysis of the deposited data

How the results depend on the processing

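No paired analysis was possible because the columns carry library codes and no replicate number. No direction of any of the 10 genes was reversed in 420 refits of single genes. The median log2 fold change of the 10 genes under CPM scaling was 0.124 in GCN2 KO Cold against WT Cold and 0.46 in GCN2 KO Cold against WT RT, with the same values (0.124 and 0.46) for all 3 groups in 1 fit, and 0.552 in the latter comparison with mitochondrial genes left out of the total. The number of genes called in WT Cold against WT RT was 8 with DESeq2 and 8 with edgeR against 4 with limma, and in GCN2 KO Cold against WT Cold 2 with DESeq2 against 0. The cause was not tested. With an absolute log2 fold change above 1 required as well, the number called by limma was 0 in WT Cold against WT RT and 0 in GCN2 KO Cold against WT RT. Among the 7 genes other than mt-Co2, mt-Co3 and mt-Atp6, an alternative chosen after seeing the data, it was 1 and 5, with fewer genes counted. With each library left out in turn it ranged from 1 to 4 in WT Cold against WT RT, was 0 throughout in GCN2 KO Cold against WT Cold and ranged from 5 to 8 in GCN2 KO Cold against WT RT. The medians then ranged from 0.36 to 0.49, from 0.18 to 0.31 and from 0.62 to 0.74, and the shares of reads from 17.9% to 18.2% in WT RT, 20.3% to 21.4% in WT Cold and 22.4% to 23.3% in GCN2 KO Cold. The other alternatives kept the counts within 1.5 times, though not always for the same genes. Without the trend, mt-Co3 and mt-Atp6 were no longer called in WT Cold against WT RT, and mt-Nd2 was. Over the bases outside copied windows, also chosen after seeing the data, the mean level per length was 24317 for mt-Nd4 and 62698 for mt-Co1. At these depths the spread between 3 mice per group limits the precision more than counting does.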
